A study of Homo sapiens with 6 samples.

Results

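The genes described here were 57 that copy or repair DNA, taken from a list of origin recognition, helicase, polymerase, nucleotide supply, recombination, checkpoint and repair genes. A gene was measured where a row of the array table was annotated with its symbol and no other, which held for 45 of the 57, out of 14232 genes tested. MCM7, PCNA, POLA1, RPA3, FEN1, RAD50, ATM, FANCL, PMS2 and XRCC5 were listed only in rows that also name another gene, so no value is given for them, and FANCA and FANCD2 were not analysed here. The samples were 6 microarrays of Ishikawa H cells, an endometrial cancer line derived from a grade 1 endometrioid tumour that the labels describe as carrying the p53 mutation G186T. In 3 arrays the cells stably carried a short hairpin RNA (shRNA) against MTDH, which encodes metadherin, a protein linked to resistance to chemotherapy, and 3 arrays were of control cells. The construct in these controls is not named in the labels, while the paper that reported the data describes its Ishikawa H controls as expressing a control shRNA. No drug is named in the treatment of either group. The labels of both describe puromycin-resistant clones, the number of which per group is not given in the sources used here. Replicates are called biological in the labels without saying whether they were separate clones or cultures of a clone, so the p-values reflect no more than the spread among these arrays, which may be technical. The question was whether DNA replication and repair genes differed in expression when MTDH was depleted.

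DNA is copied from origins that are first bound by the origin recognition complex (ORC), on which CDC6 and CDT1 load the MCM helicase. Kinases, CDC45 and the GINS complex then switch the helicase on, and DNA polymerases copy the strands with the help of a sliding clamp, its loader (RFC) and the RPA proteins that cover bare strands. Damaged DNA and stalled forks are sensed by kinases such as ATR and ATM and repaired by recombination, end joining, mismatch repair and the Fanconi pathway. Many of these genes are switched on as cells enter S phase, largely by E2F transcription factors.

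The promoters of these genes were read for such E2F sites because they are a shared feature that the choice of genes did not use. The window held 250 bases before and 50 after the start site of each gene (RefSeq, GRCh38.p14), and a window was matched by symbol and gene identifier for 41 of the 45 measured genes. Searched on both strands were the E2F words TTTCGCGC, TTTGGCGC, TTTCCCGC and TTTGCCGC, the CCAAT box (CCAAT) and the CHR element (TTTGAA). No match of a motif overlapped one of another motif, while 3 pairs of E2F matches overlapped each other. An E2F word lay in 14 of the 41 windows (34.1%), against 4.49% of 11385 windows of genes tested and 3.33% of all 27305 windows. The CCAAT box was in 25 of the 41 (61.0%), against 36.5% of the windows of genes tested and 35.7% of all windows, and the CHR element in 2 of the 41 (4.88%), against 11.7% and 15.4%. Such a match is a run of letters and not evidence that a factor binds there.

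The 6 windows below show genes on which the values turn, 5′ to 3′, with matches to these motifs in capitals. XRCC4, ORC4, MSH6 and CHEK2 were among the genes with higher values in knockdown arrays, and TYMS and CDT1 among those with lower values. They lie at chr5:83077297-83077596 on the plus strand for XRCC4, chr2:148021502-148021801 on the minus strand for ORC4, chr2:47782895-47783194 on the plus strand for MSH6, chr22:28741771-28742070 on the minus strand for CHEK2, chr18:657403-657702 on the plus strand for TYMS and chr16:88803539-88803838 on the plus strand for CDT1. TYMS, CDT1 and MSH6 hold an E2F word, XRCC4, MSH6 and CHEK2 a CCAAT box, and ORC4 none of the motifs.
XRCC4: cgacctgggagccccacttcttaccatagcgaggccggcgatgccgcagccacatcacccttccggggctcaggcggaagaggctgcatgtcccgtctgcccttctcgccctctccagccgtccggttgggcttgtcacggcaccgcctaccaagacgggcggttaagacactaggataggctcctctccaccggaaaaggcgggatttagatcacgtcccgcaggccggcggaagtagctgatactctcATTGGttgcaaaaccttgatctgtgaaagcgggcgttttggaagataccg
ORC4: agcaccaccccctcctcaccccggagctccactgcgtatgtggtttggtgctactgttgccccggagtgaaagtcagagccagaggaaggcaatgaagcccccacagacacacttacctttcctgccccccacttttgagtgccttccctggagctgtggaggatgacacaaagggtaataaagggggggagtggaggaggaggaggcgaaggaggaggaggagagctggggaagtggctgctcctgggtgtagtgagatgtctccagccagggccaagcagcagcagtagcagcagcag
MSH6: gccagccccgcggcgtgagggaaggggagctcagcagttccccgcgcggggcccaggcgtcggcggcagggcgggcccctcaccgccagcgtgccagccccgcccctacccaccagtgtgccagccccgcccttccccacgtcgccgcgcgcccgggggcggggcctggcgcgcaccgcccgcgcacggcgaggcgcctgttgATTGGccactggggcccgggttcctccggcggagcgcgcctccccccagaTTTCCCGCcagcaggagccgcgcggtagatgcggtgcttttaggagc
CHEK2: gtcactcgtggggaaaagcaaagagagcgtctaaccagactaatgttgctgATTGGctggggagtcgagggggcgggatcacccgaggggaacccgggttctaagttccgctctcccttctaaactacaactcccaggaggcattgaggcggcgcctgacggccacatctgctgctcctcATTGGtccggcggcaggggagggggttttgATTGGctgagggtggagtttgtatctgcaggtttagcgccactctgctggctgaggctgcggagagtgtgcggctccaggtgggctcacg
TYMS: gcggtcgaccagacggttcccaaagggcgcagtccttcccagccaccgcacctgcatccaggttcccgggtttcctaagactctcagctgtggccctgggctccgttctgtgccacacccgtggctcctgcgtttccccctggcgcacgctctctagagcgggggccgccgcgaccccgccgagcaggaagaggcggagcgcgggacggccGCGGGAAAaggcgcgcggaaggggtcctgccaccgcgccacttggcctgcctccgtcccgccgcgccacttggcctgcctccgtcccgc
CDT1: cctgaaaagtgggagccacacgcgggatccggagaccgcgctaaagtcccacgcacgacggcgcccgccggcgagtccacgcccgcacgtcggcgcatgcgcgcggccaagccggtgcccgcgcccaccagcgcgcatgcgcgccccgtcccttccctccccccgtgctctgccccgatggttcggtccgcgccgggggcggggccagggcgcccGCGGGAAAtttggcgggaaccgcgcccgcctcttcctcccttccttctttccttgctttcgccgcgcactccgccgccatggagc

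Each array gave 1 log2 expression value per row, and array medians over the genes tested lay between 4.59 and 4.86. Control replicate 3 was the array least like the rest, with an r of 0.900 to 0.955 against each of the others, across genes that are not independent replicates. MTDH itself, which lies on chromosome 8, had log2 values of 5.77, 5.89 and 5.84 in knockdown arrays and 6.89, 7.04 and 6.63 in control arrays. Its log2 fold change was -1.02 ± 0.17 (SE, limma, adjusted p = 0.029), and leaving out any 1 of 4 arrays ended the call, with an adjusted p of 0.16 when this was control replicate 1 and of 0.15, 0.12 and 0.11 for knockdown replicates 1, 2 and 3. The mean level of 14 epithelial and endometrial markers was 5.61 to 5.82 in knockdown arrays and 5.84 to 5.90 in control arrays. A positive log2 fold change was found in 4 of them (28.6%), against 39.3% of all genes. CDH1 was higher in knockdown arrays without overlap, at 0.28 (limma, adjusted p = 0.43). KRT8 and KRT19 were lower in knockdown arrays without overlap, at -0.55 and -0.87 (limma, adjusted p = 0.22 and 0.084). Groups were thus apart on the higher side in 7.14% of the 14 and on the lower side in 14.3%. Over all genes it was 8.81% and 11.2%. KRT7 was dimmer, with means of 4.24 in knockdown and 4.31 in control arrays. The brightest of the 14, EPCAM and KRT8, had means of 7.62 and 8.10 in knockdown arrays and 7.26 and 8.65 in control arrays. The estrogen and progesterone receptor genes ESR1 and PGR, in contrast, had means of 3.42 and 2.73 in knockdown arrays and 3.62 and 2.91 in control arrays, below the lower quartile of genes, which lay between 3.71 and 4.06. The mean level of 5 blood, 6 endothelial and 7 fibroblast markers was 2.97 to 3.15, 3.41 to 3.72 and 3.66 to 3.87 in knockdown arrays, and 3.03 to 3.45, 3.49 to 4.11 and 3.67 to 4.13 in control arrays.

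None of the 45 measured replication and repair genes passed the test at an adjusted p under 0.05 (limma with Benjamini-Hochberg adjustment over all genes), where 0.597% of all genes did, and the lowest adjusted p was 0.18. At an unadjusted p under 0.05, 9 were higher and 1 was lower in knockdown arrays, or 20.0% and 2.22%, against 8.26% and 5.83% of all genes. The 3 knockdown arrays all lay above the 3 control arrays in 7 genes (15.6%) and all below in 2 (4.44%), against 8.81% and 11.2% of all genes, so that groups were apart in either direction in 20.0% of the 45 and 19.98% of all genes. A positive log2 fold change was found in 33 of the 45 (73.3%), against 39.3% of all genes, and the median was 0.19, against -0.08 over all genes. Control replicate 3 was the lowest of the 6 arrays in 32 of the 45 genes, whereas it was the lowest in 25.4% of all genes. It was the highest array in 4 of the 45, but in 43.4% of all genes. Without that array 26 of the 45 were positive (57.8%), against 46.3% of all genes, and the median was 0.02, against -0.02. Then 11 of the 14 repair and checkpoint genes were positive (median 0.24), and 15 of the 31 of replication and nucleotide supply (median -0.02). The part of this array in these values was not tested. The 95% interval of the log2 fold change lay within a 2-fold difference in either direction in 36 of the 45 genes (80.0%), against 88.0% of all genes. All 9 others reached past 2-fold on the higher side alone. In such bulk RNA, a different share of cells in S phase and a different amount of a transcript per cell cannot be told apart.

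**Figure D1:**
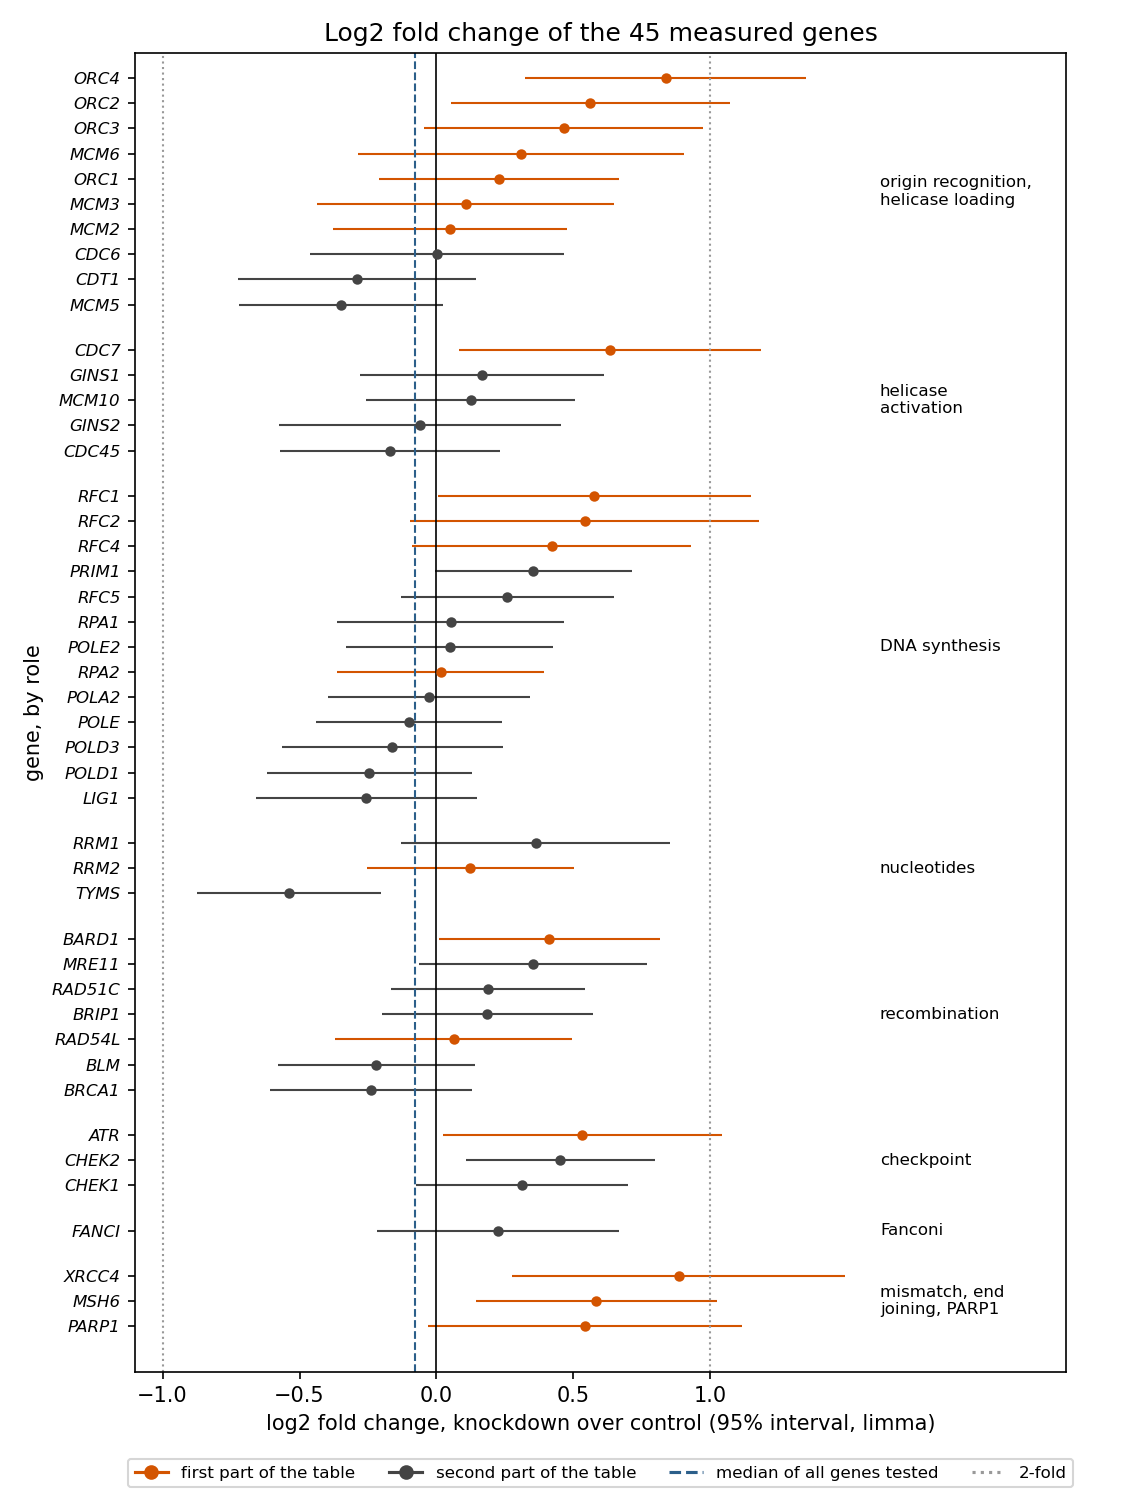
Log2 fold change of knockdown over control (x axis) for each of the 45 measured genes, grouped by role, with the 95% interval from limma (bars, n = 3 arrays per group). Orange and dark genes stand in the first and second part of the table, the dashed line is the median of all genes (-0.08), dotted lines mark 2-fold, and XRCC4 (0.89) and ORC4 (0.84) lie farthest to the right and TYMS (-0.54) farthest to the left.

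Among genes for origin recognition and helicase loading, 8 of 10 were higher on average in knockdown arrays, and the median log2 fold change was 0.17. ORC4, a core subunit of the origin recognition complex, had log2 values of 5.43, 5.70 and 5.36 in knockdown arrays, against 4.78, 5.05 and 4.15 in control arrays. All 3 knockdown arrays were above all controls, and control replicate 3 was the lowest. The log2 fold change was 0.84 ± 0.23 (SE), which did not pass over all genes (adjusted p = 0.18), and it was 0.58 without control replicate 3. The adjusted p was 0.0498 without control replicate 2. ORC2, another core subunit, had 6.20, 6.28 and 5.79 in knockdown arrays, against 5.52, 5.95 and 5.12 in control arrays, so that the groups overlapped. The log2 fold changes of ORC2, ORC3 and ORC1 were 0.56, 0.46 and 0.23, or 0.36, 0.27 and 0.03 without control replicate 3, and ORC1, the subunit whose protein level follows the cell cycle, had an interval of -0.21 to 0.67.

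The loading factors had values near or below 0. CDC6, an ATPase that joins ORC at the origin, had a log2 fold change of 0.0014 with an interval of -0.46 to 0.47. CDT1, which brings the helicase to the origin, had 4.76, 4.64 and 4.71 in knockdown arrays, against 4.97, 4.65 and 5.36 in control arrays. The highest CDT1 value was control replicate 3, and the log2 fold change was -0.29, or -0.11 without that array. Of the helicase subunits, MCM6 had 0.31, MCM3 0.11 and MCM2 0.05. MCM5 had 4.84, 4.69 and 4.90 in knockdown arrays, against 5.21, 5.32 and 4.95 in control arrays. All 3 knockdown arrays were below the controls, by a log2 fold change of -0.35 ± 0.17 (SE, adjusted p = 0.38), while after each part of the table was normalized by itself (a setting given below), the groups overlapped and the value was -0.18. In that setting MCM6, MCM3 and MCM2 were at -0.03, -0.17 and -0.18, and without control replicate 3 they were at 0.02, -0.10 and -0.03.

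Of the 5 genes that activate the helicase, 3 were positive, with a median of 0.12. CDC7, the kinase that phosphorylates the MCM ring, had 6.46, 6.96 and 6.45 in knockdown arrays, against 6.11, 6.39 and 5.46 in control arrays. The groups did not overlap, the log2 fold change was 0.63 ± 0.25 (SE, adjusted p = 0.30), and it was 0.37 without control replicate 3. CDC45, which joins the ring as part of the active helicase, had 6.75, 6.86 and 6.87 in knockdown arrays, against 7.14, 7.17 and 6.67 in control arrays. Here the first 2 controls lay above every knockdown array and the last below, for a log2 fold change of -0.17 and, without control replicate 3, of -0.33. The remaining values were 0.17 for GINS1 and -0.06 for GINS2, both subunits of the GINS complex, and 0.12 for MCM10, a scaffold of the fork. Without control replicate 3, GINS1 was at -0.02 and MCM10 at 0.02.

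The genes of DNA synthesis had a median of 0.05, and 8 of 13 were positive. RFC1, the large subunit of the clamp loader, had 7.09, 7.45 and 6.89 in knockdown arrays, against 6.59, 7.07 and 6.03 in control arrays. RFC2, a small subunit, had 6.44, 6.65 and 6.41 in knockdown arrays, against 6.19, 6.49 and 5.19 in control arrays. The groups overlapped for both genes, at 0.58 for RFC1 and 0.54 for RFC2, and without control replicate 3 at 0.31 for RFC1 and 0.16 for RFC2, for which that array was more than 1 log2 unit below the other controls. The other loader genes RFC4 and RFC5 had log2 fold changes of 0.42 and 0.26, or 0.16 and 0.14 without that array. PRIM1, the catalytic subunit of primase, had 7.23, 7.40 and 7.16 in knockdown arrays, against 7.0, 6.96 and 6.77 in control arrays. Its groups did not overlap, at 0.35 ± 0.16 (SE, adjusted p = 0.36).

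The polymerase genes lay near or below 0. POLD1, the catalytic subunit of polymerase delta, had 4.66, 4.39 and 4.51 in knockdown arrays, against 4.80, 4.58 and 4.92 in control arrays. LIG1, the ligase that joins Okazaki fragments, had 5.79, 5.45 and 5.62 in knockdown arrays, against 5.91, 5.63 and 6.10 in control arrays. Control replicate 3 was the highest array for both, in contrast to ORC4 and RFC2. The log2 fold changes were -0.24 for POLD1 and -0.26 for LIG1, or -0.17 and -0.14 without that array. Values were -0.16 for POLD3, -0.10 for POLE, the catalytic subunit of polymerase epsilon, -0.03 for POLA2 and 0.05 for POLE2. These polymerase genes and LIG1 all stood in the second part of the table. With each part normalized by itself, POLD1, LIG1 and POLD3 were at -0.09, -0.21 and -0.12. POLE, POLA2 and POLE2 were then at 0.06, 0.13 and 0.21. RPA1 and RPA2, which coat bare strands, had 0.05 and 0.02, or -0.11 and -0.07 without control replicate 3. The intervals of POLE, POLA2, POLE2, RPA1 and RPA2 ran from -0.44 at the lowest to 0.47 at the highest.

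TYMS, thymidylate synthase, which makes the thymidine nucleotide for DNA and is the target of 5-fluorouracil, had the lowest log2 fold change of the 45 genes. Its log2 values were 7.65, 7.69 and 7.65 in knockdown arrays, against 8.17, 8.16 and 8.27 in control arrays. The groups were apart by more than the spread of either, with means of 7.66 ± 0.03 and 8.20 ± 0.06 (SD, n = 3 each). The log2 fold change was -0.54 ± 0.15 (SE), with an interval of -0.87 to -0.20 and an adjusted p of 0.18, so that it did not pass. It ran from -0.56 to -0.50 with any array left out, including control replicate 3, and was -0.61 with each part of the table normalized by itself (adjusted p = 0.081). The ribonucleotide reductase subunits RRM1 and RRM2, which make deoxynucleotides, had values of 0.36 and 0.12, or 0.18 and 0.02 without control replicate 3, and RRM2, with means of 10.36 in knockdown and 10.24 in control arrays, had an interval of -0.25 to 0.50.

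**Figure D2:**
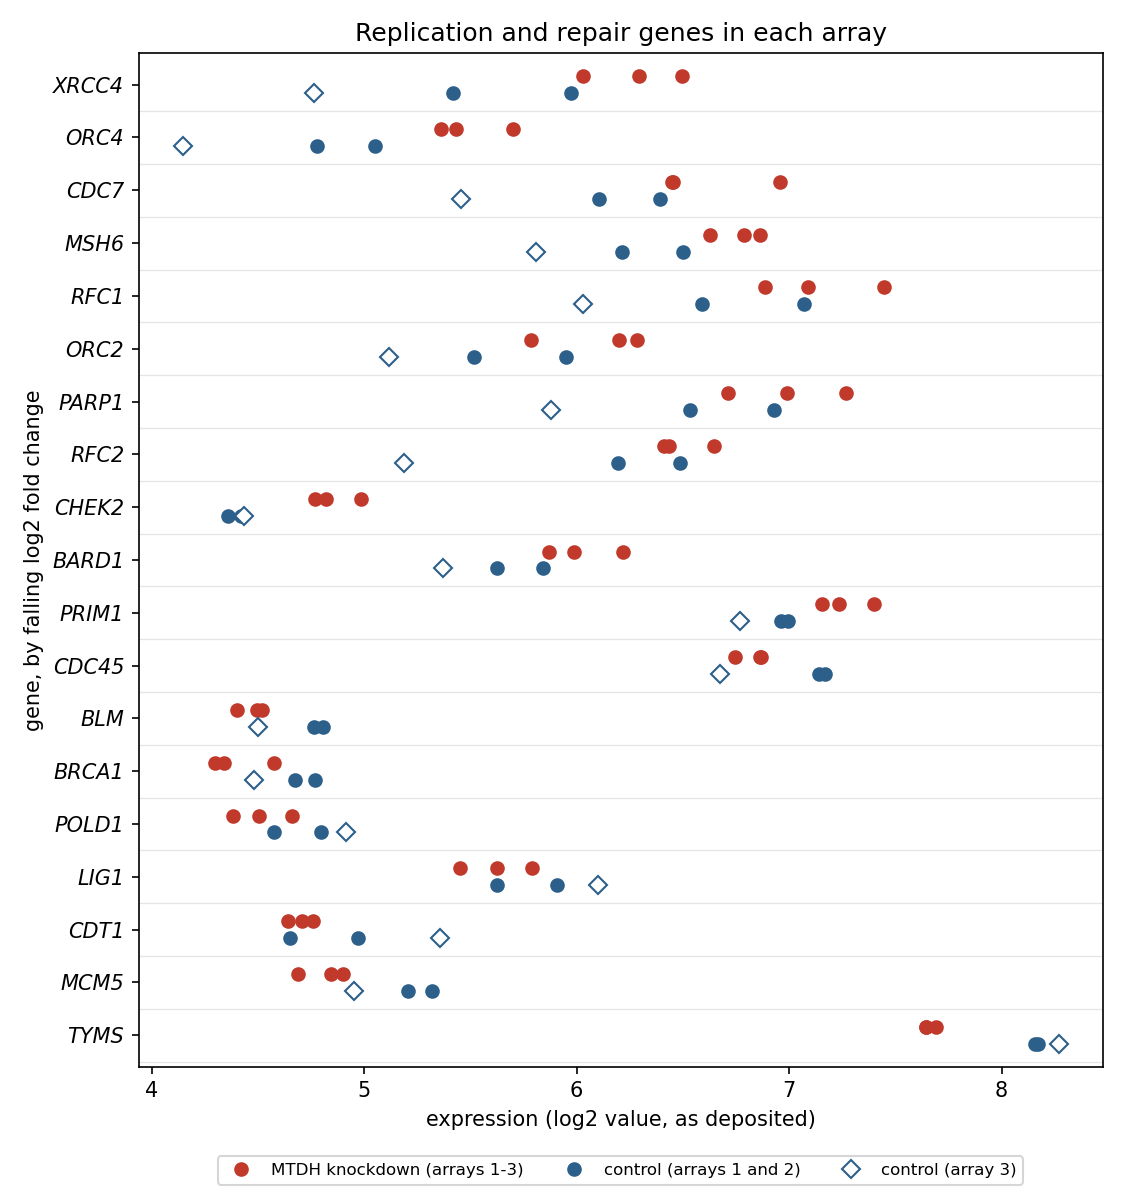
Log2 expression values (x axis) of 19 genes in each knockdown array (red) and control array (blue), with control replicate 3 as an open diamond. In the upper genes the diamond is mostly the lowest point, as for RFC2 (5.19), whereas in POLD1, LIG1 and CDT1 it is the highest. TYMS and CHEK2 have groups that are apart with the diamond close to the other controls.

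Of the repair and checkpoint genes, 12 of 14 were positive and the median was 0.33, and of the genes of replication and nucleotide supply 21 of 31, for which it was 0.11. The difference between these groups was not tested. XRCC4, which holds the ligase of end joining, had the highest value of the 45 genes, with 6.29, 6.49 and 6.03 in knockdown arrays, against 5.42, 5.98 and 4.76 in control arrays. All knockdown arrays lay above the controls, though knockdown replicate 3 and control replicate 2 were near each other. The log2 fold change was 0.89 ± 0.27 (SE, adjusted p = 0.22). It was 0.58 without control replicate 3 and 1.18 without control replicate 2, where the adjusted p was 0.036. MSH6, which recognizes mismatches left by copying, had 6.63, 6.86 and 6.79 in knockdown arrays, against 6.21, 6.50 and 5.81 in control arrays. These groups did not overlap either, at 0.58 ± 0.20 (SE, adjusted p = 0.25), and the value was 0.40 without control replicate 3. PARP1, which binds broken strands and builds poly(ADP-ribose), had 6.99, 7.27 and 6.71 in knockdown arrays, against 6.53, 6.93 and 5.88 in control arrays, with overlapping groups, a log2 fold change of 0.54 and one of 0.26 without control replicate 3.

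The 3 checkpoint kinases measured were all positive. CHEK2, which carries the signal from ATM, had 4.77, 4.98 and 4.82 in knockdown arrays, against 4.36, 4.42 and 4.44 in control arrays. Here the controls lay close together, with an SD of 0.04, and all knockdown arrays lay above them. The log2 fold change of CHEK2 was 0.45 ± 0.16 (SE, adjusted p = 0.25), from 0.39 to 0.50 with any array left out, and 0.60 with the parts normalized separately (adjusted p = 0.14). ATR, the kinase of stalled forks, had 0.53 with overlapping groups and 0.31 without control replicate 3, and its effector CHEK1 had 0.31, or 0.22 without that array.

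Genes of recombination had both signs, with 5 of 7 positive and a median of 0.19. BARD1, the partner of BRCA1, had 5.99, 6.22 and 5.87 in knockdown arrays, against 5.63, 5.84 and 5.37 in control arrays. BRCA1 had 4.34, 4.58 and 4.30 in knockdown arrays, against 4.77, 4.68 and 4.48 in control arrays. The partners thus had opposite signs, with log2 fold changes of 0.41 ± 0.18 (SE, adjusted p = 0.35) for BARD1, whose groups did not overlap, and -0.24 ± 0.17 (SE, adjusted p = 0.50) for BRCA1. With the parts normalized separately the values were 0.18 and -0.07. BLM, a helicase that undoes recombination intermediates, had 4.52, 4.49 and 4.40 in knockdown arrays, against 4.81, 4.77 and 4.50 in control arrays, a log2 fold change of -0.22 with groups that overlapped. MRE11, the nuclease that trims broken ends, had 0.35, RAD51C and BRIP1 each 0.19, and RAD54L 0.06. FANCI, the Fanconi gene measured, had 0.22. Without control replicate 3 the values were 0.32 for MRE11, 0.12 for RAD51C, 0.06 for BRIP1, -0.14 for RAD54L and 0.02 for FANCI.

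The log2 fold changes varied with the position of a gene in the table. Between control replicates 1 and 2, which enter no knockdown value, the median difference was -0.11 up to row 9064 of 22011 and 0.11 after it, and the knockdown arrays had a step at row 9071. Rows ran in the order of their identifiers, which broadly follows the chromosomes, and the step lay among rows of chromosome 8. Of the 45 genes, 19 stood in the first part and all of these were positive (median 0.46), whereas 14 of the 26 in the second part were (median 0.02). Over all genes, 56.1% in the first part and 27.0% in the second were positive, with medians of 0.05 and -0.15. The 10 genes with the highest log2 fold change all stood in the first part, and the 12 with a negative one all in the second.

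Brightness also moved with the values. A gene was taken as bright when its log2 value averaged over 6. The 10 bright replication and repair genes of the first part had a median of 0.48, and all 1239 genes there a median of 0.41 with 90.0% positive. The 11 bright ones of the second part had a median of 0.17, against 0.02 over all 1492. Among dimmer genes of the first part, which include XRCC4, ORC4, ORC2, ATR and BARD1, 9 replication and repair genes had a median of 0.46 and all 4766 genes -0.02. The 15 dimmer genes of the second part had a median of -0.10, against -0.18 over all 6735. At an unadjusted p under 0.05 (limma), 3 of the 21 bright replication and repair genes were higher (14.3%), against 18.7% of all bright genes. Of the 24 dimmer ones 6 were higher (25.0%), against 5.79% of all dimmer genes. In the first part it was 5 of 9 (55.6%), against 10.5% of all dimmer genes there. In the second part it was 1 of 15 (6.67%), against 2.48%. Knockdown arrays all lay above control arrays in 14.3% of the bright replication and repair genes, against 18.6%, and in 16.7% of the dimmer ones, against 6.48%. None of the replication and repair genes was among the 30% of genes lowest in mean, all of which count as dimmer genes. The dimmer classes were thus not matched in brightness, and their contrasts cannot separate brightness from the choice of genes. The part of row position, brightness and control replicate 3 in single values was not tested.

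**Figure D3:**
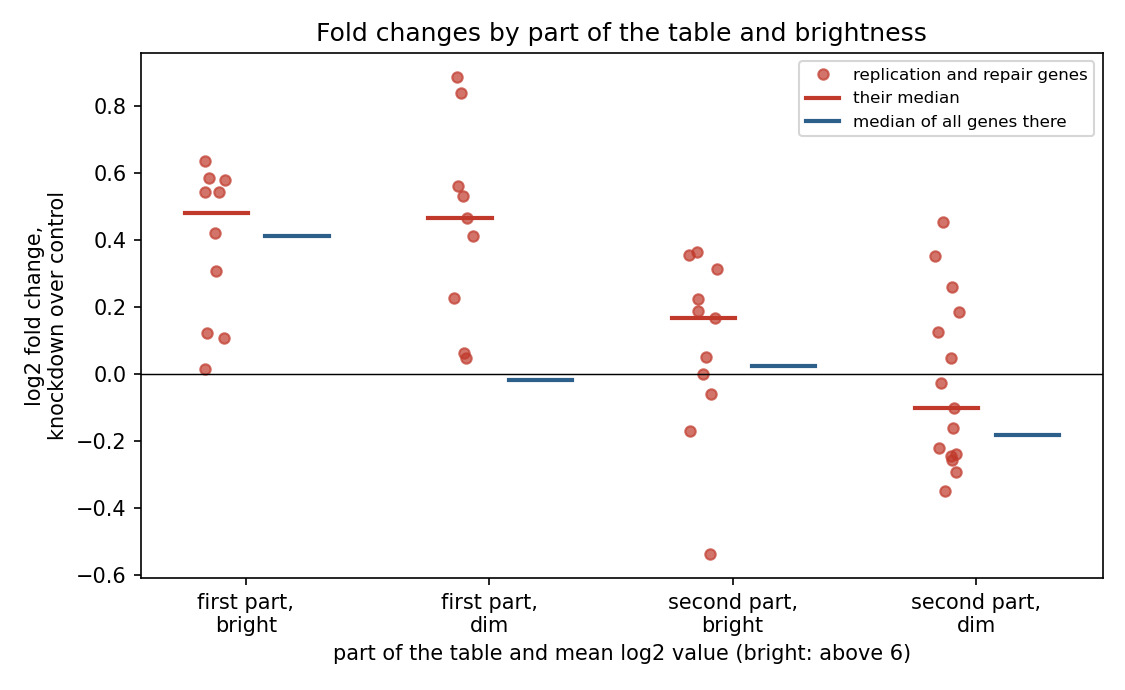
Log2 fold change of knockdown over control (y axis) for the 45 replication and repair genes (red points, red lines for the medians) by part of the table and by brightness (bright: over 6 on the log2 scale). Blue lines are medians of all genes in the same class. The dim genes among all genes reach lower levels than those among the 45. In the bright class of the first part the medians are 0.48 and 0.41, and in the dim class of the first part 0.46 and -0.02.

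When the columns were quantile normalized separately in both parts, a setting chosen after seeing the data, 29 of the 45 genes were positive, against 43.3% of all genes, with a median of 0.11, against -0.04. The knockdown arrays then lay above the controls in 9 genes (20.0%) and below in 2 (4.44%), against 9.29% and 11.6% of all genes, and none passed the test, against 0.703% of all genes. At an unadjusted p under 0.05, 5 were higher and 2 lower, or 11.1% and 4.44%, against 7.24% and 6.32% of all genes. The 9 genes above were XRCC4, ORC4, CDC7, MSH6, CHEK2, BARD1, PRIM1, CHEK1 and BRIP1, and the 2 below TYMS and RPA2. Repair and checkpoint genes kept 12 of 14 positive with a median of 0.24, whereas 17 of 31 genes of replication and nucleotide supply were positive with a median of 0.06. Origin recognition and helicase loading genes had 4 of 10 positive with a median of -0.04. The 4 were ORC4, ORC3, ORC2 and ORC1, at 0.76, 0.39, 0.35 and 0.09, while CDC6, CDT1, MCM2, MCM3, MCM5 and MCM6 were negative. With that setting and control replicate 3 left out, the median over the 45 genes was -0.02 and 21 were positive.

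Genes with an E2F word in the promoter had lower log2 fold changes than genes without. The 14 with a word had a median of 0.02 and 8 were positive, while the 27 without had a median of 0.35 and 23 were positive. With the parts normalized separately the medians were -0.04 and 0.24. Over all genes tested with a window the order was the other way, with medians of -0.01 for genes with an E2F word and -0.07 for genes without. Genes with a CCAAT box had a median of 0.23 and those without 0.12. These medians are descriptions without a test. Of the 14 genes with a word, 5 stood in the first part of the table and 9 in the second, and of the 27 without 13 and 14. In the first part the median was 0.31 with a word and 0.54 without, and in the second part -0.06 and 0.19.

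**Figure D4:**
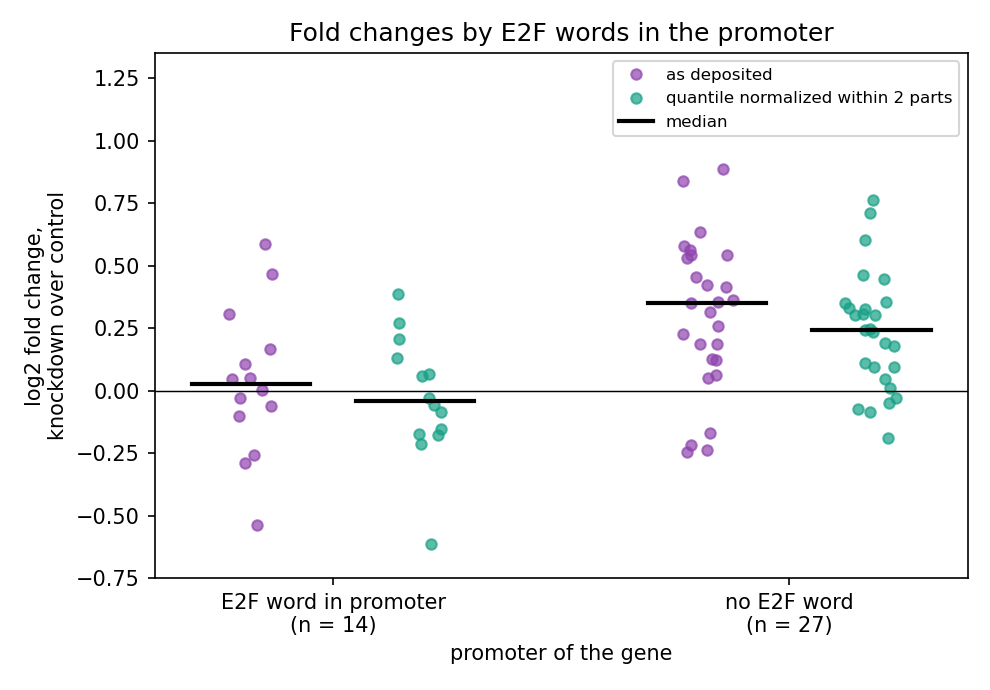
Log2 fold change of knockdown over control (y axis) for 14 genes with and 27 genes without an E2F word in the promoter, as deposited (purple) and with both parts of the table normalized separately (green), with medians as black lines. The deposited medians are 0.02 and 0.35, and the normalized ones -0.04 and 0.24.

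Genes of E2F and the retinoblastoma family, which set the level of many S phase genes, were examined beside them. Of 11 measured, 4 were positive and 1 passed the test, against 0.597% of all genes. E2F5, which acts mainly as a repressor, had 5.75, 5.81 and 5.50 in knockdown arrays, against 4.35, 4.76 and 4.10 in control arrays. It rose by 1.28 ± 0.20 on the log2 scale (SE, adjusted p = 0.020) and lies on chromosome 8, and 4 left-out arrays each ended the call, with an adjusted p of 0.12 when control replicate 1 was missing and of 0.11, 0.11 and 0.052 for knockdown replicates 1, 2 and 3. It was also lost when all rows were tested (0.098) and after median centring (0.0513). The activator E2F1 had 5.61, 5.03 and 5.26 in knockdown arrays, against 5.64, 5.66 and 5.71 in control arrays. The E2F1 groups did not overlap but lay close, at -0.37 (adjusted p = 0.39). The repressor E2F7 had 4.91, 4.90 and 5.00 in knockdown arrays, against 5.34, 5.35 and 5.38 in control arrays. RB1, the retinoblastoma gene, had 4.14, 4.10 and 3.90 in knockdown arrays, against 4.61, 4.45 and 4.53 in control arrays. In both, the groups were apart by a clear gap, at -0.42 for E2F7 (adjusted p = 0.27) and -0.48 for RB1 (adjusted p = 0.24). With the parts normalized separately, the groups overlapped for E2F1 (-0.27) and RB1 (-0.32) and stayed apart for E2F7 (-0.27). TFDP2, a partner of the E2F proteins in DNA binding, had 6.88, 7.40 and 6.94 in knockdown arrays, against 6.54, 6.77 and 5.49 in control arrays, without overlap. Its log2 fold change was 0.81 (adjusted p = 0.29), and it was 0.42 without control replicate 3. At an unadjusted p under 0.05, 2 genes of the list were higher and 2 lower, or 18.2% each, against 8.26% and 5.83% of all genes. E2F1, E2F7, RB1 and TFDP2 were picked after their values were seen.

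Of 34 measured genes in a list of other replication genes, none passed (limma), 20 were positive and the median was 0.06. At an unadjusted p under 0.05, 7 of them were higher and 1 lower, or 20.6% and 2.94%, against 8.26% and 5.83% of all genes. The highest was RRM2B, a ribonucleotide reductase subunit induced by p53, with 0.84 ± 0.17 (SE, adjusted p = 0.070), which passed with the parts normalized separately (0.94, adjusted p = 0.044). The lowest was TK1, thymidine kinase, with -0.36 (adjusted p = 0.34). RRM2B lies on chromosome 8 and TK1 on chromosome 17.

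In a list of other repair and checkpoint genes, 3 of 55 measured rose and none fell, against 0.372% and 0.225% of all genes, with 35 positive and a median of 0.14. Like all lists here, it was chosen with earlier results of these data known, so these counts only describe it. WRN, a helicase and nuclease that is lost in Werner syndrome, had 6.54, 6.81 and 6.49 in knockdown arrays, against 5.13, 5.55 and 4.67 in control arrays. POLB, the polymerase of base excision repair, had 6.91, 7.27 and 6.78 in knockdown arrays, against 5.43, 5.98 and 5.38 in control arrays. NBN, which forms a complex with MRE11 and RAD50, had 7.08, 7.19 and 6.73 in knockdown arrays, against 6.11, 6.11 and 5.79 in control arrays. The groups were well apart in each, and the log2 fold changes were 1.50 ± 0.22 for WRN (SE, adjusted p = 0.018), 1.39 ± 0.21 for POLB (SE, adjusted p = 0.018) and 1.00 ± 0.18 for NBN (SE, adjusted p = 0.043). All 3 lie on chromosome 8, as does MTDH. MRE11, the measured partner of NBN, is on chromosome 11 and did not pass (adjusted p = 0.41). Apart from E2F5 and RRM2B, the lists held other genes of chromosome 8. MCM4, DSCC1, RAD54B, PRKDC and GINS4 had log2 fold changes of 0.66, 0.56, 0.55, 0.48 and 0.30, and RECQL4 and SOX17 of -0.07 and -0.12. None of these passed, and the genes of chromosome 8 as a set were not examined. When control replicate 1 was missing, all 3 calls were lost, with an adjusted p of 0.10 for WRN, 0.12 for POLB and 0.16 for NBN, and they were also lost without knockdown replicate 1, 2 or 3 (0.051 to 0.23), and that of NBN without control replicate 3 (0.067). With all rows tested the adjusted p was 0.096 for WRN, 0.096 for POLB and 0.13 for NBN, and after median centring the calls of WRN (0.0514) and NBN (0.087) were lost. That of NBN was also lost after quantile normalization (0.053) and with an intensity trend and robust prior (0.054). Of the 45 replication and repair genes, 0 were on chromosome 8.

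Genes of mitosis, 23 of which were measured, had the same median as the 45 genes, at 0.19, with 13 positive and none past the test (limma). With an unadjusted p under 0.05 there were 5 higher and 2 lower, or 21.7% and 8.70%, against 8.26% and 5.83% of all genes. The highest was NUF2, a kinetochore gene, with 0.84 (adjusted p = 0.22), and the lowest NDC80, which encodes its partner in the same complex, with -0.48 (adjusted p = 0.34). Without control replicate 3 the median of the mitosis genes was 0.05.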

How the data were processed

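RNA of 3 MTDH knockdown and 3 control samples was hybridised to Affymetrix whole-transcript arrays after amplification and biotin labelling. The values deposited by the authors are on a log2 scale, with a column for each array, and the submitters' processing notes name Partek. Its version and the background and normalization steps are not stated in those notes, and no detection values were used. The number of arrays limits the precision. Of 22011 rows, 14432 carried 1 gene symbol in the platform annotation, 2408 several and 5171 none. Rows with 1 symbol were kept, with the highest-mean row per gene (14232 genes). Gene identifiers gave 14205 genes a chromosome in RefSeq GRCh38.p14, and changed no symbol.

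Groups and replicate numbers came from the sample titles. A mean per group was fitted with limma (version 3.58.1, R version 4.3.3) on the deposited values over all genes, with empirical Bayes moderation and Benjamini-Hochberg adjustment, and a gene was called at an adjusted p under 0.05. The fit was tested on simulated data. Per-array values are given for the 8 highest and 8 lowest log2 fold changes and for genes whose groups do not overlap, and of other lists called genes, otherwise the highest and lowest. Other genes were named after their values were seen. Alternatives were the mean of a gene's rows, all rows, leaving out the 30% dimmest genes, quantile normalization, median centring, an intensity trend with a robust prior, a replicate block, each array left out, and, added after seeing the data, quantile normalization within 2 parts of the table. The 45 measured genes and all lists were chosen with earlier results of these data known.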

Additional observations from a re-analysis of the deposited data

How the results depend on the processing

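None of the 45 genes passed under any alternative except 2, XRCC4 and ORC4, which passed with the replicate block and when control replicate 2 was left out, so that leaving out each array gave 0 to 2. The replicate block called 364 genes in all, but replicate numbers were not shown to pair the samples, since deviations correlated at -0.10, 0.47 and 0.31 across genes. The count of 85 genes called in all was 19 when all rows were tested, 48 after median centring and 12 to 233 with an array left out. The 9 genes with groups apart (20.0% of the 45, against 19.98% of all genes) became 12 to 25 with an array left out, or 26.7% to 55.6%, against 24.4% to 42.6% of all genes. They became 16 (35.6%, against 29.3%) after quantile normalization within 2 parts without control replicate 3, where the median of the 45 was -0.023. With an array left out that median ran from 0.02 to 0.27. MTDH was at -1.02 with all rows (adjusted p = 0.10), at -0.92 after centring (adjusted p = 0.096) and from -1.13 to -0.92 with an array left out. Of the 45 genes, 8 changed sign after quantile normalization within 2 parts (MCM6, MCM3, MCM2, RRM2, RPA2, CDC6, POLA2 and POLE) and 7 without control replicate 3 (GINS1, MCM3, RAD54L, RPA1, MCM2, RPA2 and CDC6), with log2 fold changes of at most 0.31 and 0.17 as deposited. RFC2 had -0.023 and EPCAM -0.027 after quantile normalization within 2 parts without control replicate 3, both positive under the other alternatives. The dim markers PTPRC, LUM and PECAM1 also changed sign. PTPRC had -0.0024 and -0.023 in the settings with 2 parts and -0.0092 to 0.094 with an array left out, LUM -0.027 to 0.074 and PECAM1 -0.14 to 0.18, and the cause was not tested. Among the 19 genes with values per array, 280 alternative values kept their sign and side of the threshold, 4 passed it and 1 changed sign. With 3 arrays per group, and no detection values, differences of dim genes are the least certain.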

Other observations

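Rows that name one of the 57 genes beside another gene were fitted with all 22011 rows. They include rows that name TYMS, CHEK2, RRM2 or FANCI, which also had a row of their own. Of 17 such rows none passed (limma), none had an unadjusted p under 0.05, the lowest adjusted p was 0.46, and the log2 fold changes ran from -0.32 to 0.62, with 10 positive. Since the probes of these rows may read either gene, no value is given to a gene. Knockdown replicate 2 was the highest of the 6 arrays in 24 of the 45 measured genes, against 20.5% of all genes, and control replicate 2 in 12, against 9.23%. The median SD over the 45 genes was 0.16 between knockdown arrays and 0.28 between control arrays, and over all genes it was 0.17 and 0.24.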
